A study of Mus musculus with 16 samples.

Results

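The genes described here are those of the cardiac natriuretic peptide system: the peptide precursors Nppa (atrial natriuretic peptide) and Nppb (brain natriuretic peptide), the proteases Corin and Furin that cut them, and the receptors Npr1, Npr2 and Npr3. Every non-control probe of the arrays whose gene name was 1 of these 7 symbols or a synonym was taken, which gave 14 of 41174 probes and 7 of 27670 gene names. Nppa and Nppb had 2 probes each, Furin 2, Corin and Npr1 1 each, and Npr2 and Npr3 3 each. Furin's second probe carried the older name 9130404I01Rik. The hearts came from 129Sv mice, wild-type or CHIP(-/-), sampled 1 week after sham surgery or TAB (banding of the aorta, which makes the left ventricle pump against a raised pressure). CHIP, the product of Stub1, is a co-chaperone that marks misfolded proteins with ubiquitin. Each of the 4 groups, wild-type sham, wild-type TAB, CHIP(-/-) sham and CHIP(-/-) TAB, held 4 arrays of ventricular RNA, described by the labels as biological replicates. Each array set heart RNA labelled with Cy5 against a reference RNA of whole neonatal mice of mixed 129Sv and C57BL/6 strain, labelled with Cy3. The age and sex of the mice and the extent of the Stub1 deletion are not given in the sources used here. Transcripts linked to sex are described below.

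Natriuretic peptides are made as precursors by heart muscle cells and released when the chamber wall is stretched. Furin, a general convertase of the secretory pathway, cuts the Nppb precursor, and Corin, a membrane protease of heart muscle, cuts that of Nppa. The mature peptides bind Npr1, a receptor guanylyl cyclase whose product cGMP relaxes vessels and promotes sodium excretion; Npr2 is the related cyclase that prefers the C-type peptide, and Npr3 removes the peptides from the circulation. In the adult ventricle both peptide transcripts are textbook markers of hemodynamic load, while the atria hold most Nppa in the unloaded heart.

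Nppa and Nppb are neighbours on mouse chromosome 4. In RefSeq's GRCm38.p6 annotation Nppb lies at chr4:147985786-147987205 and Nppa at chr4:148000722-148002074, with 13516 bases between them. The 250 bases before the start that RefSeq's promoter table uses are shown for this pair because both transcripts moved with TAB. The Nppa window is chr4:148000472-148000721 and the Nppb window chr4:147985650-147985899, both on the plus strand. The RefSeq gene record of Nppb begins inside its window. Capitals mark matches, on either strand, to GATAA (the core bound by GATA factors), CATTCC (the core of the M-CAT element bound by TEAD factors), AAGTG (a core bound by NKX2-5) or TATAAA (the TATA box).
Nppa: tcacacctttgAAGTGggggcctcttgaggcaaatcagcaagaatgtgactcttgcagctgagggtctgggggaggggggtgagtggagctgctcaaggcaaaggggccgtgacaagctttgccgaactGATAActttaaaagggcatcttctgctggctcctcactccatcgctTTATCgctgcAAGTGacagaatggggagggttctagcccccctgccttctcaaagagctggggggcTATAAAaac
Nppb: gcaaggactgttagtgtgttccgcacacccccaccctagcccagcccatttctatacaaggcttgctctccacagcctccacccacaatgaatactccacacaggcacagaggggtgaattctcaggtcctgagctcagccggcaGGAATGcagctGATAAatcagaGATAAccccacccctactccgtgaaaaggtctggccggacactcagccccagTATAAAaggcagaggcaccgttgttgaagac
Both windows held 2 matches to GATAA and 1 to TATAAA. In Nppa the GATAA matches began 121 and 75 bases before the start, the second of them on the minus strand, and the AAGTG matches began 239 and 65 bases before it. In Nppb the GATAA matches began 94 and 83 bases before the start, and a CATTCC match on the minus strand began 105 bases before it. The TATAAA matches began 9 bases before the start in Nppa and 31 in Nppb. Matches did not overlap each other. Of 32851 promoter windows of this length, 22.6% held GATAA, 12.6% CATTCC, 40.7% AAGTG and 12.4% TATAAA. The windows of Corin, Npr1, Npr2 and Npr3 held none of the 4, and those of Furin, which has 2 annotated starts, held 4 matches to AAGTG and 1 to TATAAA, all at the same start.

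Across the series, the arrays came from 4 slides with 1 group on each, so an effect of the slide cannot be told apart from one of the group. The share of spots well above background was 27.0% to 37.7% for the heart RNA and 56.6% to 62.4% for the reference RNA. The number of arrays limits the precision. Stub1 had log2 ratios of -1.47 to -1.17 on the CHIP(-/-) arrays and of -0.41 to 0.43 on the wild-type arrays. The ventricular markers Myl2 and Tnni3 were well above background on the 16 arrays. The atrial light chain Myl7 was high on 3 sham arrays: it read 3.82 on replicate 1 and 1.89 on replicate 3 of wild-type sham, and 2.20 on replicate 1 of CHIP(-/-) sham. The other 13 arrays read -1.99 to 0.17. Eif2s3y and Ddx3y, both Y-linked, were detected on 3 sham arrays, replicate 4 of wild-type sham and replicates 2 and 4 of CHIP(-/-) sham. They were detected on 0 of the TAB arrays. Xist, expressed in females, read -3.27 to -3.20 on those 3 arrays and was not well above background there. On the other 13 arrays it read -0.41 to 0.16 and was well above background. By these transcripts the 3 sham arrays read as male and the others, with all TAB arrays, as female. Surgery is therefore partly mixed with sex. Genotype among the sham arrays is too, since replicate 4 of wild-type and replicates 2 and 4 of CHIP(-/-) read as male. Without the 3 arrays, CHIP(-/-) sham keeps replicates 1 and 3. Levels below are log2 ratios of heart over reference, and a value of 1 probe is not set against that of another gene. In whole ventricle, fewer cells of a type and less RNA per cell cannot be told apart.

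TAB raised both peptide transcripts and lowered Corin in both genotypes. Of the 14 probes, 9 passed the filter on dim probes and were tested among 14684 probes of the array; Npr1 had none among them. Rose, fell and differed stand for an adjusted p of limma below 0.05 over the 14684 probes, and such probes are called. In wild type 4 member probes rose, against 16.3% of all probes tested, and 2 fell, against 17.1%. In CHIP(-/-) 4 rose, against 21.3%, and 2 fell, against 22.7%. The probes that rose were those of Nppa and Nppb, and those that fell were Corin's and 1 of Npr2's. In each genotype 5 of the 9 had sham and TAB arrays that did not overlap, against 30.0% of all probes in wild type and 39.7% in CHIP(-/-). The median difference of the 9 was 0.14 in wild type and 0.06 in CHIP(-/-), beside -0.01 and -0.02 for all probes.

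**Figure D1:**
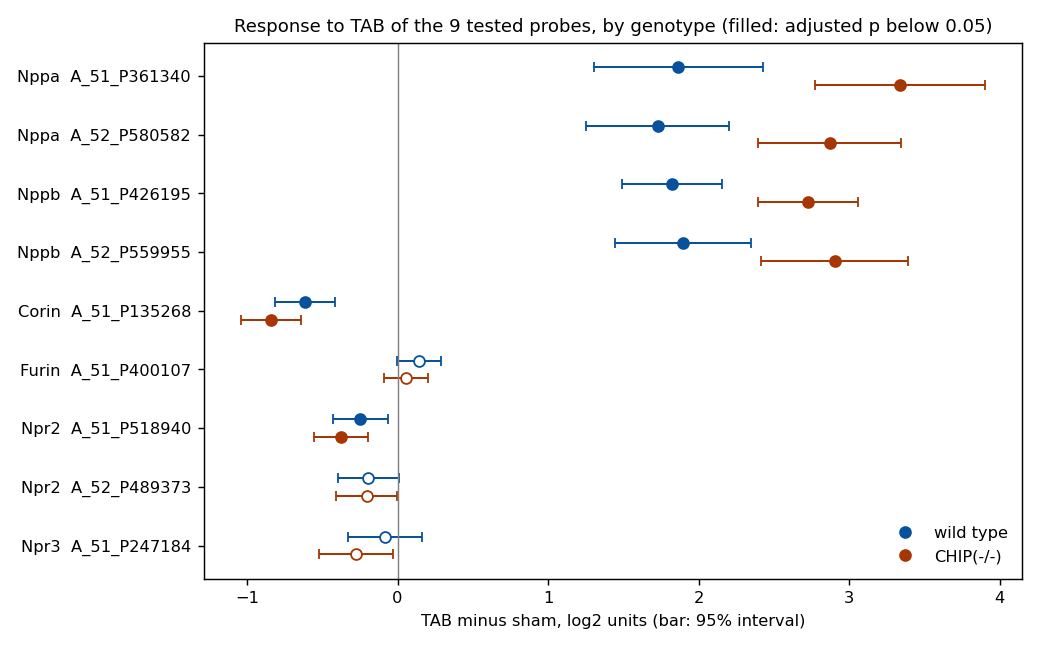
Difference between TAB and sham arrays (x axis, log2 units, with 95% intervals) of the 9 tested probes, in wild type (blue) and CHIP(-/-) (brown), with filled points where the adjusted p is below 0.05. The 4 peptide probes lie between 1.73 and 1.89 in wild type and between 2.73 and 3.34 in CHIP(-/-), and Corin lies at -0.61 and -0.84.

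The direction of smaller differences depends on how the arrays were scaled. With each array centred on its median in place of loess, the median of all probes with TAB moved to -0.18 in wild type and -0.21 in CHIP(-/-). The share of called probes that were higher fell from 48.8% to 7.88% in wild type and from 48.4% to 11.4% in CHIP(-/-). After TAB, that share between genotypes went from 44.7% to 55.7%. The rises of Nppa and Nppb and the fall of Corin were called under each scaling that was tried.

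Nppa, measured by 2 probes with 10 spots each, rose in both genotypes. On the probe A_51_P361340 the wild-type sham arrays, in the order of replicates 1 to 4, stood at 3.69, 3.27, 3.31 and 4.98, and the wild-type TAB arrays at 4.91, 5.97, 5.64 and 6.20. The CHIP(-/-) sham arrays stood at 3.44, 2.77, 2.63 and 3.23, and the CHIP(-/-) TAB arrays at 6.35, 6.30, 6.31 and 6.47. In wild type the groups overlapped, because sham replicate 4 lay above TAB replicate 1; in CHIP(-/-) every TAB array lay above every sham array. The rise was 1.87 in wild type (SE 0.27, 3.65-fold, adjusted p = 1.2e-05) and 3.34 in CHIP(-/-) (SE 0.27, 10.1-fold, adjusted p = 1.1e-09). Ranked by the size of the rise over 14684 probes, these were the number 5 and the number 4. Without wild-type sham replicate 4 the rise in wild type was 2.25.

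The other Nppa probe, A_52_P580582, gave the same order of groups. Its wild-type sham arrays stood at 4.02, 3.76, 3.82 and 5.18, its wild-type TAB arrays at 5.40, 6.09, 5.85 and 6.35, its CHIP(-/-) sham arrays at 3.92, 3.26, 3.09 and 3.62, and its CHIP(-/-) TAB arrays at 6.24, 6.52, 6.17 and 6.44. Sham and TAB did not overlap in either genotype, and wild-type sham replicate 4 was again the highest sham array. The rise was 1.73 in wild type (SE 0.23, adjusted p = 3.8e-06) and 2.87 in CHIP(-/-) (SE 0.23, adjusted p = 8.3e-10). Spots of a probe on 1 array differed little, with SDs of 0.03 to 0.11 over the 10 spots. Wild-type sham replicate 4 carried Y-linked transcripts, and its Myl7 was -1.10. Of the arrays with high Myl7, CHIP(-/-) sham replicate 1 had the highest Nppa of its group on both probes. The others, wild-type sham replicates 1 and 3, came next below replicate 4 in their group on both probes. The part of atrial tissue in these levels was not tested. Leaving out the 3 arrays with high Myl7, the rises of the probe A_51_P361340 were 1.56 in wild type and 3.48 in CHIP(-/-).

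**Figure D2:**
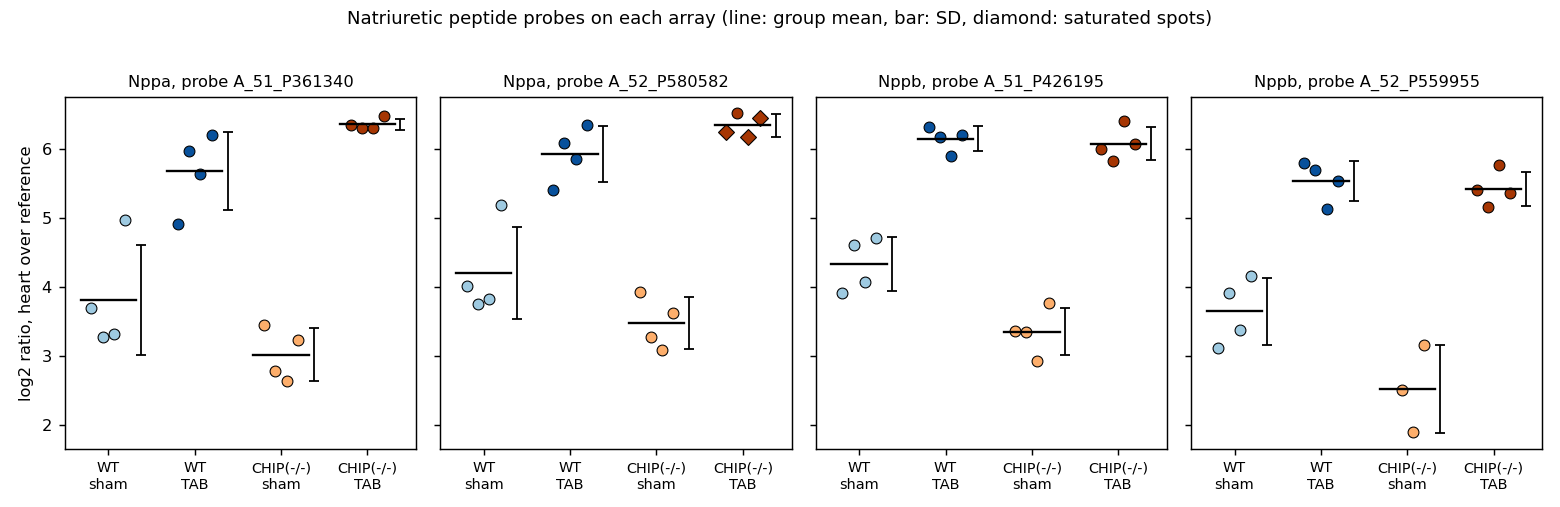
Log2 ratio of heart over reference (y axis) on each array for the Nppa and Nppb probes, by group (x axis; WT, wild-type), with the group mean as a line, the SD as a bar and diamonds for arrays with saturated spots. TAB arrays sit above the sham arrays of their genotype, except that wild-type sham replicate 4 (4.98) lies above wild-type TAB replicate 1 (4.91) on the Nppa probe A_51_P361340.

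Signal at the top of the scanner's range was reached by 1 Nppa probe, in 1 group. Of the 10 spots of A_52_P580582, 7, 6 and 7 were saturated in the heart channel on CHIP(-/-) TAB replicates 1, 3 and 4, with mean signals of 62510 to 63350. On replicate 2 of that group and on the other arrays 0 were saturated, and on A_51_P361340 none were on any array. The difference A_52_P580582 minus A_51_P361340 ran from 0.20 to 0.51 over the wild-type sham arrays and from 0.39 to 0.49 over the CHIP(-/-) sham arrays. With TAB it ran from 0.12 to 0.49 over wild-type arrays and from -0.14 to 0.22 over CHIP(-/-) arrays. In that last group the array without saturated spots had 0.22 and those with them had values below 0. A saturated spot gives a lower bound, so the rise of 2.87 in CHIP(-/-) on this probe may be too small. The unsaturated probe gave 3.34 there. In wild type, where neither probe had saturated spots, the rises were 1.73 and 1.87, in the same order. The part of saturation in the gap between the probes was not tested. With saturated spots left out, the rise on A_52_P580582 in CHIP(-/-) was 2.94.

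The reference channel, which held the same RNA pool on each array, also read higher for Nppa on TAB arrays. On A_52_P580582 its mean signal had a median of 721 on the 8 sham arrays (617 to 954) and of 1362 on the 8 TAB arrays (875 to 1576), while the median heart signal went from 6923 to 52790. On A_51_P361340 the reference medians were 246 and 376, and on the Nppb probe A_51_P426195 they were 81.0 and 96.6. Reference medians also rose, by less, for probes whose heart signal was not raised: from 51.2 to 53.5 for Corin, from 193 to 204 and from 71.8 to 78.8 for the Npr2 probes and from 115 to 127 for Npr3. Furin's went from 755 to 731. A reference signal that rises along with the heart signal makes the ratio smaller than the change in the heart channel. With the heart channel alone, quantile normalized between arrays, the Nppa rises on A_51_P361340 were 2.11 in wild type and 4.08 in CHIP(-/-), and those of Nppb on A_51_P426195 were 1.93 and 2.93.

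**Figure D3:**
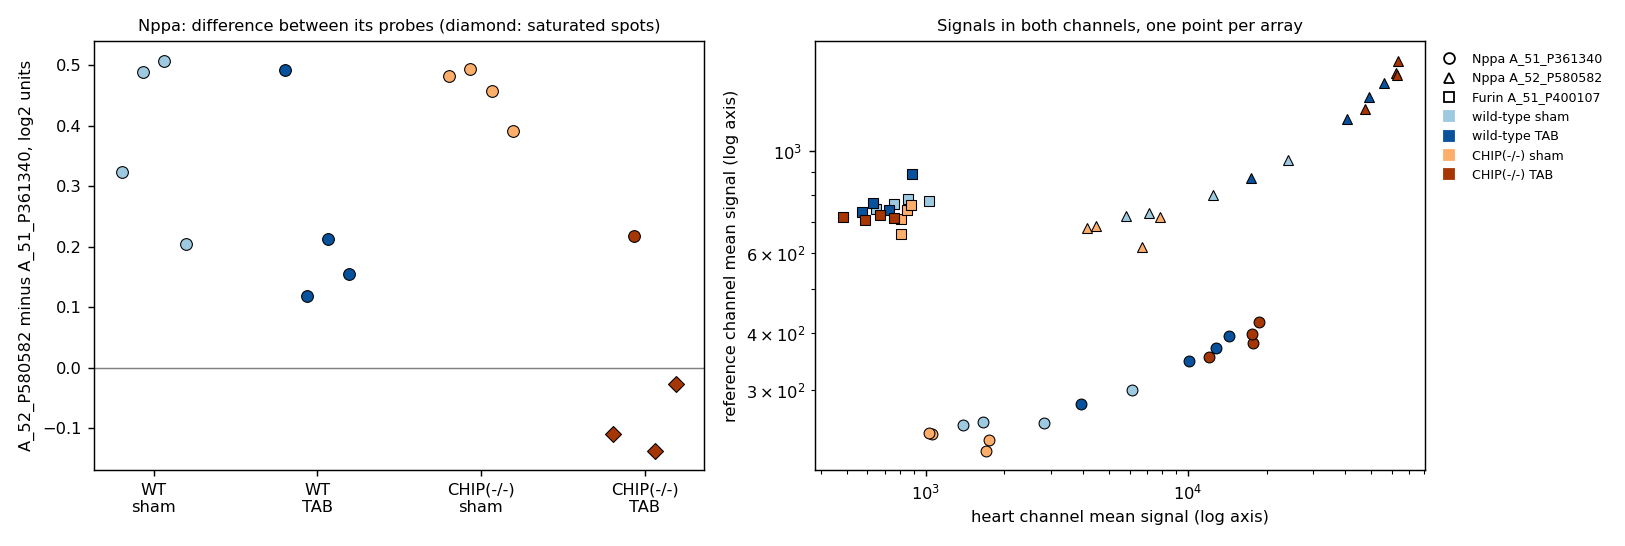
Left, difference between the Nppa probes (y axis, log2 units) on each array by group, with diamonds for arrays with saturated spots, which lie below 0. Right, mean signal of the reference channel against that of the heart channel (both log axes) for the Nppa probes and for Furin, with 1 point per array; for Nppa the reference signal is higher on arrays with a higher heart signal, and Furin's stays between 657 and 889.

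Nppb also rose in both genotypes, from a sham level that was lower in CHIP(-/-). On A_51_P426195 the wild-type sham arrays stood at 3.91, 4.60, 4.07 and 4.71, and the wild-type TAB arrays at 6.32, 6.17, 5.89 and 6.20. The CHIP(-/-) sham arrays stood at 3.36, 3.34, 2.93 and 3.76, and the CHIP(-/-) TAB arrays at 6.00, 5.82, 6.40 and 6.08. Sham and TAB arrays were apart in both genotypes. The rise was 1.82 in wild type (SE 0.16, 3.54-fold, adjusted p = 1.9e-08) and 2.73 in CHIP(-/-) (SE 0.16, 6.62-fold, adjusted p = 1.6e-11). Wild-type TAB replicate 1, the lowest of its group for Nppa, was the highest of its group for Nppb on both Nppb probes.

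The second Nppb probe, A_52_P559955, read dimmer, with 188 to 2640 in the heart channel, and had no value on CHIP(-/-) sham replicate 1, where its spot was marked as an outlier; the fit left that value out. Its sham arrays stood at 3.12, 3.91, 3.37 and 4.16 in wild type and at 2.50, 1.89 and 3.16 in CHIP(-/-). Its TAB arrays stood at 5.79, 5.70, 5.13 and 5.53 in wild type and at 5.41, 5.16, 5.76 and 5.36 in CHIP(-/-). The groups were ordered as on the first probe. The rise was 1.89 in wild type (SE 0.22, adjusted p = 8e-07) and 2.90 in CHIP(-/-) (SE 0.24, adjusted p = 1.5e-09).

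Between genotypes after sham, Nppb was the member that differed. CHIP(-/-) was lower by 0.98 on A_51_P426195 (log2 difference -0.98, SE 0.16, adjusted p = 0.011), with every CHIP(-/-) sham array below every wild-type sham array. It was 1 of 9 member probes called, against 0.0341% of all probes (0.0136% higher and 0.0204% lower), and 1 of the 5 probes that differed on the whole array. The others were those of Stub1 (-1.70), Lnx1 (-0.62), Ifi27 (0.67) and Ly6a (0.41). The second Nppb probe had a difference of -1.12 on 3 arrays against 4 (SE 0.24, adjusted p = 0.086). Nppa stood 0.80 and 0.72 lower on its probes in CHIP(-/-) (log2 differences -0.80 and -0.72, adjusted p = 0.38 and 0.31), with overlapping groups. Without wild-type sham replicate 4 these were -0.41 and -0.39 (adjusted p = 0.76 and 0.69), and without the 3 arrays with Y-linked transcripts -0.39 and -0.36 (adjusted p = 0.94 and 0.91). Without the 3 arrays with high Myl7 they were -1.25 and -1.15 (adjusted p = 0.27 and 0.17). The call of Nppb was lost without wild-type sham replicate 2 (difference -0.89, adjusted p = 0.088), or without CHIP(-/-) sham replicate 1, 2 or 3 (-0.98, -0.98 and -0.84, adjusted p = 0.051, 0.057 and 0.1). It was also lost with Feature Extraction's processed signals (-0.87, adjusted p = 0.14), with the authors' deposited table (-0.87, adjusted p = 0.12), with the heart channel alone (-0.94, adjusted p = 0.05) and without an intensity trend (adjusted p = 0.071). The second Nppb probe passed in 6 settings: median centring (-0.95, adjusted p = 0.00029), the heart channel alone (-1.12, adjusted p = 0.044), without wild-type sham replicate 1 (-1.30, adjusted p = 0.023) or CHIP(-/-) sham replicate 4 (-1.45, adjusted p = 0.0058), and without the arrays with high Myl7 (-1.52, adjusted p = 0.0047) or with Y-linked transcripts (-1.58, adjusted p = 0.017). On the first probe, without the 3 arrays with Y-linked transcripts the difference was -1.05 (adjusted p = 0.017), and without those with high Myl7 it was -1.32 (adjusted p = 0.00064).

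After TAB the genotypes were not told apart by any of the 9 probes, against 9.91% of all probes that were called (4.43% higher and 5.48% lower in CHIP(-/-)). Nppb was at nearly the same level, with a difference of -0.07 on A_51_P426195 (95% interval -0.41 to 0.26, adjusted p = 0.85). Nppa on A_51_P361340 was 0.68 higher in CHIP(-/-) (95% interval 0.11 to 1.24, adjusted p = 0.13). Its 4 CHIP(-/-) TAB arrays, at 6.30 to 6.47, all lay above the 4 wild-type TAB arrays, at 4.91 to 6.20, which made it the 1 member probe without overlap, against 11.9% of all probes. The saturated probe had 0.42 (95% interval -0.06 to 0.89, adjusted p = 0.29). The difference of A_51_P361340 passed with the heart channel alone (1.09, adjusted p = 0.043), with median centring (0.66, adjusted p = 0.046), with the arrays of the TAB groups alone (0.68, adjusted p = 0.032) and without wild-type sham replicate 4 or the 3 arrays with Y-linked transcripts (0.68 in both cases, adjusted p = 0.024 and 0.032). It did not pass under the other alternatives, and without wild-type TAB replicate 1 it was 0.42 (adjusted p = 0.41).

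The response to TAB was larger in CHIP(-/-) than in wild type for 3 of the 9 probes, and smaller for 0, against 2.32% and 2.05% of all probes (4.37% in either direction). The difference between the responses was 1.47 for Nppa on A_51_P361340 (SE 0.39, adjusted p = 0.029), 1.14 on the partly saturated A_52_P580582 (SE 0.32, adjusted p = 0.046) and 0.90 for Nppb on A_51_P426195 (SE 0.23, adjusted p = 0.024). Since saturation bounds the CHIP(-/-) TAB level of A_52_P580582 from below, its value may be too small, and with saturated spots left out it was 1.21 (adjusted p = 0.031). The second Nppb probe had 1.01 (SE 0.32, adjusted p = 0.079). Each value is the genotype difference after TAB minus that after sham. For Nppb on A_51_P426195 these were -0.07 and -0.98, and for Nppa on A_51_P361340 they were 0.68 and -0.80, neither of which passed. The 5 comparisons share their arrays, so they are not separate evidence: the sham arrays that stood low in CHIP(-/-) are those its TAB response is measured from.

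These calls were close to the threshold. For Nppa on A_51_P361340 the call was lost without any 1 of 7 arrays, CHIP(-/-) sham replicates 2 and 3, wild-type TAB replicates 1 and 3 and CHIP(-/-) TAB replicates 1, 3 and 4, with differences of 1.22 to 1.49 and adjusted p of 0.05 to 0.07. On A_52_P580582 it was lost without any 1 of 10 arrays, wild-type sham replicate 4, CHIP(-/-) sham replicates 2, 3 and 4, wild-type TAB replicates 1 and 3 and the 4 CHIP(-/-) TAB arrays, with 0.81 to 1.20 and adjusted p of 0.057 to 0.11. For Nppb on A_51_P426195 it was lost without any 1 of 5, wild-type sham replicates 2 and 4, CHIP(-/-) sham replicate 3 and replicate 3 of both TAB groups, with 0.76 to 0.82 and adjusted p of 0.056 to 0.067. All 3 calls were lost with processed signals (adjusted p of 0.061 to 0.11) and with the deposited table (0.062 to 0.11). Without an intensity trend they were lost as well (0.059 to 0.096). That of A_52_P580582 was lost too with the heart channel alone (adjusted p = 0.053) and without the filter on dim probes (0.056). The second Nppb probe passed without wild-type sham replicate 1 (1.18, adjusted p = 0.029) and without CHIP(-/-) sham replicate 4 (1.33, adjusted p = 0.016). It passed too with median centring (adjusted p = 0.025), the heart channel alone (0.041) and without the 3 arrays with high Myl7 (0.016). Without the 3 arrays with Y-linked transcripts the Nppa values were 1.07 and 0.78 (adjusted p = 0.13 and 0.2). Nppb on A_51_P426195 then kept its call (0.98, adjusted p = 0.046). The second Nppb probe had 1.465, with CHIP(-/-) sham replicate 3 as the only array left with a value in its group.

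Markers of other cell types moved in the same comparisons. Over all probes, 16.3% rose and 17.1% fell with TAB in wild type, and 21.3% rose and 22.7% fell in CHIP(-/-). The response was larger in CHIP(-/-) for 2.32% of all probes and smaller for 2.05%. After TAB, 4.43% were higher in CHIP(-/-) and 5.48% lower. Fibroblast markers rose in 9 of 11 cases in both genotypes, and 6 of 11 had a larger response in CHIP(-/-). After TAB, 5 of 11 were higher there. The mean log2 ratio of the 11 ran from -1.63 to -1.25 over the wild-type sham arrays and from -1.91 to -1.53 over the CHIP(-/-) sham arrays. With TAB it ran from -1.05 to -0.52 over wild-type and from -0.35 to -0.09 over CHIP(-/-) arrays. Macrophage markers rose in 5 of 8 cases in wild type and 8 of 8 in CHIP(-/-), and 4 of 8 had a larger response there. After TAB, 5 of 8 were higher in CHIP(-/-). Their mean ran from -0.20 to -0.10 over the wild-type and from -0.31 to -0.16 over the CHIP(-/-) sham arrays, and with TAB from 0.10 to 0.26 over wild-type and from 0.43 to 0.67 over CHIP(-/-) arrays. Atrial markers, whose tissue makes Nppa, rose in 0 of 7 cases in wild type and 2 of 7 in CHIP(-/-), and their mean ran from -0.87 to 0.59 over the wild-type and from -1.02 to 0.10 over the CHIP(-/-) sham arrays. With TAB it ran from -0.74 to -0.40 over wild-type and from -0.64 to -0.32 over CHIP(-/-) arrays. The atrial markers that rose were Dkk3 and Pam. Of the defining atrial genes, Myl7 read -1.41 to 0.17, Myl4 -2.51 to -1.93 and Sln -2.61 to -2.44 on the 8 TAB arrays. On the 5 sham arrays without high Myl7 they read -1.99 to -0.75, -2.76 to -2.53 and -2.95 to -2.65, in the same order, and on the 3 with high Myl7 they read 1.89 to 3.82, -1.44 to 0.06 and -2.40 to -1.43. Of 12 endothelial and endocardial markers, 8 rose with TAB and 1 fell in wild type, while 4 rose and 1 fell in CHIP(-/-); 2 of 12 had a smaller response in CHIP(-/-) and 3 were lower there after TAB. Their mean ran from 0.63 to 0.72 over the wild-type and from 0.61 to 0.70 over the CHIP(-/-) sham arrays, and with TAB from 0.78 to 1.09 and from 0.72 to 0.87. Of 10 markers of smooth muscle and pericytes, 7 rose in each genotype, and 1 fell in wild type and 2 in CHIP(-/-). In CHIP(-/-) 2 were higher and 2 lower after TAB, and 2 had a larger and 1 a smaller response. Their mean ran from -0.09 to -0.01 and from -0.16 to -0.13 over the sham arrays, and from 0.22 to 0.49 and from 0.34 to 0.57 over the TAB arrays, wild type first. The part of these cells in the peptide levels was not tested.

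Corin, the protease that cuts the Nppa precursor, fell with TAB in both genotypes. Its wild-type sham arrays stood at 3.23, 2.87, 3.11 and 2.97 and its wild-type TAB arrays at 2.32, 2.56, 2.43 and 2.40. Its CHIP(-/-) sham arrays stood at 3.24, 3.20, 3.42 and 3.26 and its CHIP(-/-) TAB arrays at 2.63, 2.23, 2.37 and 2.53. Sham and TAB did not overlap in either genotype. The fall was 0.61 in wild type (log2 difference -0.61, SE 0.10, adjusted p = 3.1e-05) and 0.84 in CHIP(-/-) (log2 difference -0.84, SE 0.10, adjusted p = 1.8e-07). On the linear scale these are falls of 1.53-fold and 1.79-fold. The genotypes were not told apart after sham (0.24, 95% interval 0.04 to 0.44, adjusted p = 0.52) or after TAB (0.01, 95% interval -0.19 to 0.21, adjusted p = 0.97), and the difference between the responses, -0.23, did not pass (95% interval -0.51 to 0.06, adjusted p = 0.44). Ventricular muscle markers moved in the same direction more often than the other way: 5 of 10 tested fell and 1 rose with TAB in wild type, and 8 fell and 2 rose in CHIP(-/-). Over all probes 17.1% fell and 16.3% rose in wild type, and 22.7% fell and 21.3% rose in CHIP(-/-). The markers' mean log2 ratio ran from 3.03 to 3.13 over the wild-type and from 2.61 to 3.03 over the CHIP(-/-) sham arrays, and with TAB from 2.95 to 3.11 over wild-type and from 2.73 to 2.92 over CHIP(-/-) arrays. Their part in the fall of Corin was not tested. Corin has 1 probe, with a heart signal of 168 to 473. The gene spans chr5:72299948-72504540.

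Furin, which lies at chr7:80389194-80405441, did not pass in any of the 5 comparisons. On A_51_P400107 the wild-type sham arrays stood at 0.68, 0.84, 0.78 and 0.57, the wild-type TAB arrays at 0.84, 0.89, 0.84 and 0.87, the CHIP(-/-) sham arrays at 0.78, 0.86, 0.78 and 0.65, and the CHIP(-/-) TAB arrays at 1.02, 0.71, 0.75 and 0.81. The 4 groups overlapped. The difference with TAB was 0.14 in wild type (95% interval 0.00 to 0.29, adjusted p = 0.13) and 0.06 in CHIP(-/-) (95% interval -0.09 to 0.20, adjusted p = 0.55), and with median centring it turned to -0.18 and -0.34, the latter called at adjusted p = 0.029. The probe under the older name was not well above background in either channel on any array.

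**Figure D4:**
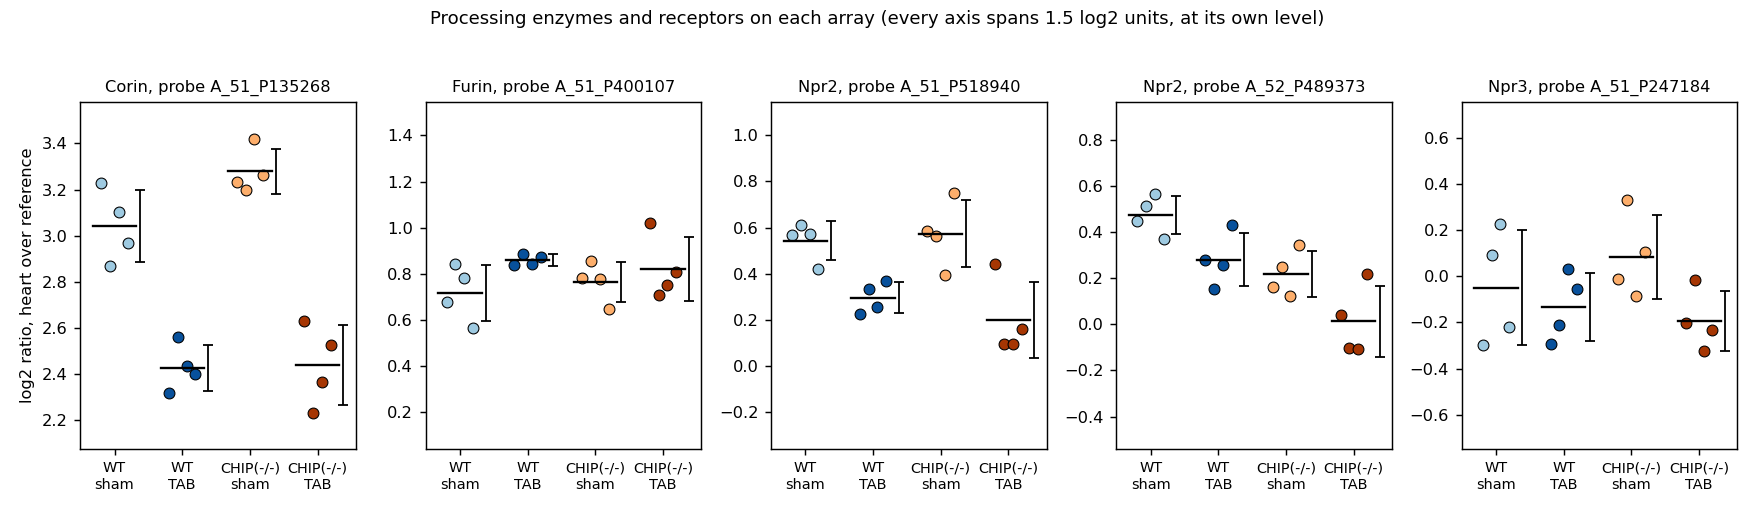
Log2 ratio of heart over reference (y axis) on each array for the tested probes of Corin, Furin, Npr2 and Npr3, by group (x axis; WT, wild-type), with the group mean as a line and the SD as a bar; every axis spans the same number of log2 units. Corin's TAB arrays (2.23 to 2.63) lie below its sham arrays (2.87 to 3.42), while the groups of Furin and Npr3 overlap.

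The receptors read dim. Npr1, the receptor of both peptides at chr3:90450591-90465928, has 1 probe, A_51_P182693, which was not well above background on any of the 16 arrays in the heart channel or in the reference channel. Its heart signal was 42.2 to 60.8 over a local background of 39 to 47.5, so these arrays give no change for it in any group. Npr2, at chr4:43629015-43651437, was well above background in the heart on 16, 9 and 1 of the 16 arrays by its probes A_51_P518940, A_52_P489373 and A_52_P565549. Npr3, at chr15:11839896-11907837, was so on 12 arrays by A_51_P247184 and on 0 by A_51_P356883 and A_52_P400798. A probe named by accession AK040677, whose description gives the Npr3 product, lay outside the rule and was above background on 0 arrays.

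**Figure D5:**
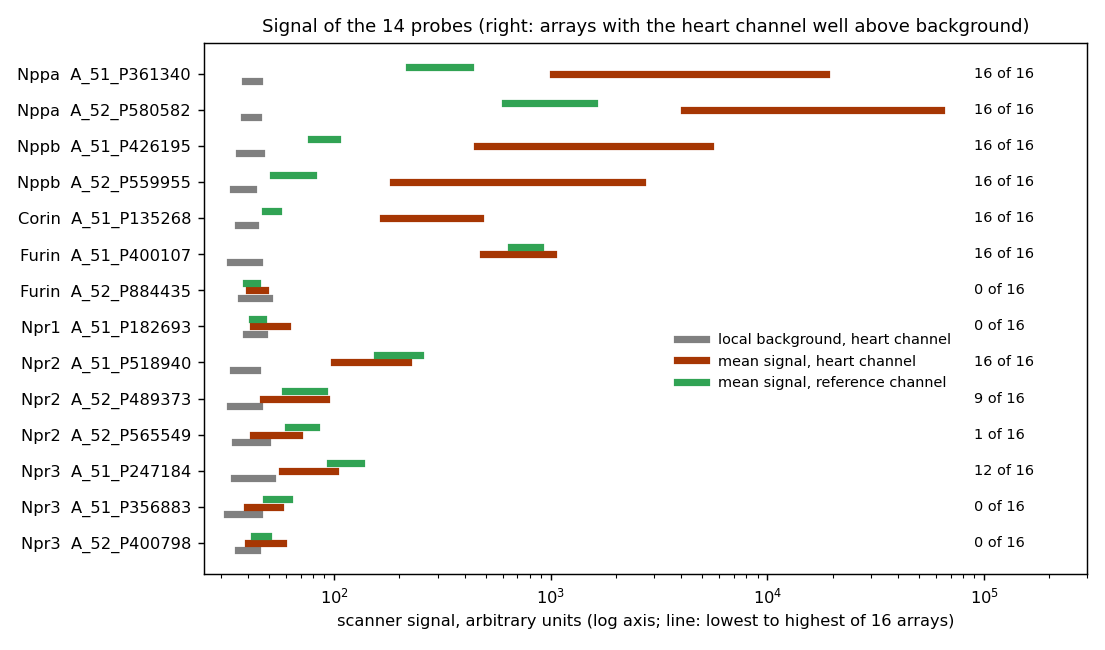
Lowest to highest value over the 16 arrays (x axis, scanner units, log axis) of the heart signal, the reference signal and the local background of the heart channel for each of the 14 probes, with the number of arrays well above background at the right. The peptide probes reach 2640 to 63350 in the heart channel, and the receptor probes stay at or below 219.

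On its brightest probe, A_51_P518940, Npr2 fell slightly with TAB. The wild-type sham arrays stood at 0.57, 0.61, 0.57 and 0.42 and the wild-type TAB arrays at 0.23, 0.34, 0.26 and 0.37, without overlap. The CHIP(-/-) sham arrays stood at 0.58, 0.56, 0.40 and 0.75 and the CHIP(-/-) TAB arrays at 0.44, 0.10, 0.10 and 0.16, where TAB replicate 1 lay above sham replicate 3. The fall was 0.25 in wild type (log2 difference -0.25, SE 0.09, adjusted p = 0.032) and 0.38 in CHIP(-/-) (log2 difference -0.38, SE 0.09, adjusted p = 0.0012). The wild-type call was lost without sham replicate 1, 2 or 3 or TAB replicate 1 or 3, with differences of -0.24 to -0.22 and adjusted p of 0.068 to 0.081. It was lost too with the heart channel alone (-0.15, adjusted p = 0.15), without the filter on dim probes (adjusted p = 0.079) and without the 3 arrays with high Myl7 (-0.22, adjusted p = 0.19).

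The second Npr2 probe, A_52_P489373, had -0.20 in wild type (adjusted p = 0.13) and -0.21 in CHIP(-/-) (adjusted p = 0.094), and neither passed. It was lower in CHIP(-/-) than in wild type by similar amounts after sham (-0.26, adjusted p = 0.47) and after TAB (-0.27, adjusted p = 0.091). The probe was well above background on 4 of 4 wild-type sham arrays but on 2 of 4 CHIP(-/-) sham arrays. With TAB it was so on 2 of 4 wild-type and 1 of 4 CHIP(-/-) arrays. After sham its arrays did not overlap, with 0.37 to 0.56 in wild type and 0.12 to 0.34 in CHIP(-/-). In this way 2 of 9 member probes were without overlap after sham, against 5.09% of all probes, and 1 of the 2 was this dim probe. The brighter Npr2 probe showed no such gap, with 0.03 after sham (95% interval -0.15 to 0.21) and -0.10 after TAB (95% interval -0.28 to 0.08). Without CHIP(-/-) TAB replicate 4 the second probe passed with TAB in CHIP(-/-) (-0.28, adjusted p = 0.032) and between genotypes after TAB (-0.34, adjusted p = 0.037).

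Npr3, the clearance receptor, did not pass in any comparison. Its probe A_51_P247184 read -0.30, 0.09, 0.23 and -0.22 on the wild-type sham arrays and -0.29, -0.21, 0.03 and -0.05 on the wild-type TAB arrays. It read -0.01, 0.33, -0.09 and 0.11 on the CHIP(-/-) sham arrays and -0.20, -0.02, -0.33 and -0.23 on the CHIP(-/-) TAB arrays. The 4 groups overlapped. The difference with TAB was -0.08 in wild type (95% interval -0.33 to 0.16, adjusted p = 0.64) and -0.28 in CHIP(-/-) (95% interval -0.52 to -0.03, adjusted p = 0.062). The second passed without wild-type sham replicate 3 (adjusted p = 0.048), CHIP(-/-) sham replicate 3 (-0.33, adjusted p = 0.041) or CHIP(-/-) TAB replicate 2 (-0.34, adjusted p = 0.036), with median centring (-0.41, adjusted p = 0.00039), with the arrays of the CHIP(-/-) groups alone (adjusted p = 0.042) and without the 3 arrays with high Myl7 (-0.31, adjusted p = 0.046).

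Of 23 other genes of natriuretic peptide and cGMP signalling, 21 were on the array and 13 were tested. In each genotype 5 rose and 5 fell with TAB, with a median difference of 0.19 in wild type and 0.10 in CHIP(-/-). The share called was 33.4% of all probes in wild type and 44.0% in CHIP(-/-). With median centring 1 rose and 5 fell in each; the calls of Pde1a, Pde2a and Vasp in wild type and of Gucy1a1, Gucy1b1 and Vasp in CHIP(-/-) were then lost. Phosphodiesterases, which break down cyclic nucleotides, moved both ways: Pde1a rose by 0.35 in wild type (SE 0.09) and 0.68 in CHIP(-/-) (SE 0.09), and Pde3a had -0.29 (SE 0.11) and -0.65 (SE 0.11), both called. Pde2a, which cGMP stimulates, rose by 0.33 in wild type, and Pde1c fell by 0.43 in wild type and 0.46 in CHIP(-/-). With processed signals both Pde1c calls were lost (-0.90 and -0.52, adjusted p = 0.053 and 0.23). Its wild-type call was lost too without the 3 arrays with high Myl7 (-0.29, adjusted p = 0.13). The wild-type call of Pde3a was lost without sham replicate 1, 3 or 4 or TAB replicate 1 or 3, with -0.30 to -0.23 and adjusted p of 0.058 to 0.14. Of 30 alternatives, 11 lost this call. Gucy1a1 and Gucy1b1, subunits of the soluble guanylyl cyclase that nitric oxide activates, both rose by 0.44 in CHIP(-/-) and had 0.13 and 0.22 in wild type, not called. The differences between the responses, 0.31 and 0.22, did not pass (adjusted p = 0.23 and 0.56). Pcsk6, a convertase that activates Corin, fell by 0.55 in wild type and 0.58 in CHIP(-/-). Ide, a protease that degrades natriuretic peptides, fell by 0.37 in wild type and 0.21 in CHIP(-/-). Vasp, a substrate of cGMP-dependent kinase, rose by 0.30 in both genotypes, and Rgs4, which restrains G protein signalling, rose by 0.45 in wild type and had 0.22 in CHIP(-/-), not called. Rgs2, a related regulator that the kinase activates, fell by 0.24 in wild type and 0.64 in CHIP(-/-). Between genotypes after sham 0 of 13 passed, against 0.0341% of all probes. After TAB 1 was higher and 1 lower, against 4.43% and 5.48%. Pde1a was higher in CHIP(-/-) by 0.33 (adjusted p = 0.015) and Pde3a had a difference of -0.40 (adjusted p = 0.019). These calls were lost without CHIP(-/-) TAB replicate 3 for Pde1a (0.28, adjusted p = 0.072) and replicate 4 for Pde3a (-0.34, adjusted p = 0.065). Both were lost with median centring (adjusted p = 0.089 and 0.13) and without the filter on dim probes (adjusted p = 0.055 for both). That of Pde3a was lost as well with processed signals (adjusted p = 0.11) and with the deposited table (adjusted p = 0.12). In wild type the call of Vasp was lost without sham replicate 1 or 4 (0.24 in both cases, adjusted p = 0.062 and 0.059), and that of Pde2a without sham replicate 2 or 4 or TAB replicate 2 (0.28 to 0.30, adjusted p of 0.058 to 0.065). Each of these wild-type calls was lost in 5 of 30 alternatives. The genes on the array that did not pass the filter include Nppc, the C-type peptide, Mme (neprilysin, which degrades the peptides), and Pde5a.

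Of 20 transcription regulators known to act on Nppa or Nppb, 17 were tested. In wild type 2 rose and 5 fell with TAB, and in CHIP(-/-) 3 rose and 5 fell, with medians of -0.16 and -0.04. The share called over all probes, in either direction, was 33.4% and 44.0%. The T-box factor Tbx5 fell by 0.67 in wild type (SE 0.13) and 0.71 in CHIP(-/-) (SE 0.13). Mef2d fell by 0.49 and 0.83, and Mef2a by 0.45 and 0.41, in the same order, while Mef2c of the same family had 0.24 and 0.26 and turned to -0.04 and -0.08 with median centring. Hand2 fell by 0.63 in wild type and had -0.15 in CHIP(-/-), where it was not called, and the difference between the responses, 0.47, did not pass (adjusted p = 0.19). Tead1, which binds M-CAT elements, had 0.17 and 0.27, called in both genotypes, and turned to -0.15 and -0.12 with median centring. Its wild-type call was lost without sham replicate 1, 2 or 4 or TAB replicate 3 or 4 (0.14 to 0.18, adjusted p of 0.051 to 0.12). Of 30 alternatives, 11 lost that call, besides the turn with median centring. In CHIP(-/-) Mrtfa, a coactivator of serum response factor, rose by 0.37, and its relative Myocd fell by 0.31. With median centring the rise of Mrtfa was 0.05 and its call was lost (adjusted p = 0.74). The call of Myocd was lost with processed signals (-0.29, adjusted p = 0.055) and with the heart channel alone (-0.12, adjusted p = 0.3). It was lost too without the 3 arrays with Y-linked transcripts (-0.25, adjusted p = 0.14). Between genotypes 0 of 17 passed after sham or after TAB, and 0 differed in response. Over all probes the shares were 0.0341%, 9.91% and 4.37%, in that order. Gata4 was too dim to be tested, and Nkx2-5 had outlier spots on more than 1 array.

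Among 9961 other genes, those whose log2 ratios followed each member most closely over the 16 arrays were taken as a description. The arrays fall into sham and TAB groups, so these correlations share that split. For Nppa they were Nmrk2, a nicotinamide riboside kinase (r = 0.977), the membrane protein gene Emp1 (0.969) and the matrix gene Cilp (0.967). Nppa was taken by A_52_P580582, which had saturated spots on 3 of 4 CHIP(-/-) TAB arrays. For Nppb they were Acta1, skeletal alpha actin (0.984), Nes, the intermediate filament nestin (0.968), and Ccnd1, cyclin D1 (0.964). For Corin they were Mef2d (0.964), Fig4 (0.964) and Svil, supervillin (0.959). For Npr2 they were Ppcs (0.916), Fig4 (0.886) and Krba1 (0.884), for Furin Caml (0.865), Ehd1 (0.801) and Bag5 (0.799), and for Npr3 Adora1 (0.836), Wrap73 (0.809) and Keap1 (0.791).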

How the data were processed

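RNA of 16 mouse ventricles was measured on 2-colour Agilent arrays of pattern 014868, 1 array per sample. The deposited scanner files give each spot's mean signal and local background as intensity values, extracted with Feature Extraction 9.1.3.1 per the file headers. Feature Extraction's own log10 ratio of red over green is in the same deposited files and was used for the processed-signal alternative. The authors also deposited a series table of log2 ratios for 14322 probes, centred on each probe's median over the arrays, in the direction of heart over reference; it served as an alternative. The files of the CHIP(-/-) TAB group hold values of 3 significant digits and altered gene names for 47 probes, so names were taken by probe from another file. Probe names were updated through RefSeq, by accession for 22951 probes, by symbol for 6659 and by synonym for 3109, while 8455 kept the file's name.

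Backgrounds were corrected with normexp (offset 50) and ratios were normalized by loess within each array, with control spots at weight 0, in limma 3.58.1 under R 4.3.3. Outlier spots were left out, saturated spots were kept and spots of a probe were averaged. Probes with a heart signal well above background on at least 4 arrays and a value on at least 15 were tested, 14684 in all. Group means of the 16 arrays were fitted with lmFit and eBayes with an intensity trend, p-values were adjusted by Benjamini-Hochberg over all probes, and probes with an adjusted p under 0.05 were called, in 5 comparisons. The fit was tested on simulated data. Where the labels do not say more than biological replicate, p-values measure the spread between these samples. Replicate numbers name arrays.

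The members and gene lists were chosen with earlier results of these data known. Of the other lists, up to 4 called genes per direction with the largest differences were named in each TAB comparison and up to 2 in the others; Ide and Rgs2 are given in both genotypes. For each member's brightest tested probe the 3 most correlated genes were named. Alternatives changed the background correction, the normalization, the channel, the filter, the trend, saturated spots, the arrays fitted and each array in turn. The settings without the 3 arrays with high Myl7 and without the 3 with Y-linked transcripts were chosen after seeing the data. Promoter windows are RefSeq's, of GRCm38.p6; all 7 genes matched.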

Additional observations from a re-analysis of the deposited data

Results flagged for a closer look

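The TAB responses of 3 probes differed between genotypes by the test of the difference itself, with 1.47 for Nppa on A_51_P361340, 1.14 for Nppa on A_52_P580582, which held saturated spots, and 0.90 for Nppb on A_51_P426195, each larger in CHIP(-/-). Of 55 sets of 4 arrays examined, 1 held an array far from the others: on the Npr3 probe A_52_P400798 an array of wild-type TAB stood at 0.031, with a gap to its neighbour of 0.92 of the group's range, above Dixon's 95% limit. Chance alone gives about 1 in 20 such groups, and this probe was not well above background on any array.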

How the results depend on the processing

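Of 1326 values of single member probes under 30 alternatives, 1247 kept their side of the threshold, 51 lost a call, 27 gained one and 1 turned its direction with a call. Among the 1247, 27 changed sign with no call on either side, such as Furin with TAB in wild type. The rises of Nppa and Nppb and the fall of Corin with TAB were called in each genotype under each alternative that gave a value. With median centring, Furin's difference in CHIP(-/-) turned to -0.34, Mef2c to -0.043 in wild type and -0.08 in CHIP(-/-), and Tead1 to -0.15 and -0.12. Under it 7 of 9 member probes were called with TAB in wild type and 9 in CHIP(-/-), against 6 in each. The added calls were falls. Of all 14684 probes, 5685 and 7293 were then called, against 4905 and 6456 with loess. Lower were 5237 and 6458 of them, against 2511 and 3333. The cause was not tested. After sham, 5 probes and 1 member probe were called. The numbers on the whole array were 2 with processed signals, 29 with median centring, 17 with the heart channel alone, 2 with the authors' deposited series table, 8 without the filter, 3 with 1 probe per gene, 46 with the arrays of the 2 groups alone, 21 without the arrays with high Myl7 and 14 without those with Y-linked transcripts. Member probes called after sham were 0 with processed signals, the deposited table or no trend, and 2 with median centring or without either set of 3 arrays. After TAB, 1455 probes and 0 member probes were called; with median centring there were 501, and 1 member probe was called with median centring, the heart channel alone, the 2 groups alone, or without the arrays with Y-linked transcripts. Responses differed for 641 probes and 3 member probes, and for 198 with median centring, 390 without a trend and 110 without the arrays with Y-linked transcripts; 0 member probes differed with processed signals, the deposited table or no trend. With TAB in wild type 4905 probes were called, and 3069 without the arrays with high Myl7. Leaving out each array in turn gave 4190 to 4984 probes and 5 to 6 member probes with TAB in wild type, 5831 to 6527 and 6 to 7 in CHIP(-/-), 2 to 20 and 0 to 2 after sham, 908 to 1590 and 0 to 1 after TAB, and 367 to 874 and 0 to 4 for the responses. Deviations from the group mean correlated at -0.17 to 0.15 between arrays of different groups with the same replicate number. Between those with other numbers they correlated at -0.15 to 0.23. The labels do not say whether the numbers pair animals or batches, and these correlations cannot settle it. With the number as a replicate block 4792, 6346, 6, 1337 and 555 probes were called, in that order. The counts of member probes then stayed at 6, 6, 1, 0 and 3. With 4 arrays per group on 1 slide each, slide and group cannot be told apart, and signals near background limit Npr1, Npr2 and Npr3.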
